A study of Arabidopsis thaliana with 111 samples.

Results

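The endosperm of the micropylar and chalazal ends of germinating Arabidopsis thaliana seeds (MCE) was compared at 12 h and at 7 h after sowing. The members were chosen by their titles, which gave 4 arrays at 12 h and 4 at 7 h, 8 arrays beside the 103 others of the series. Both groups were wild-type seeds of the accession Columbia-0 that lay on 0.7% water agarose at 22 °C under continuous light, with no other treatment, and were taken apart by hand under a stereo microscope. Sampled times for MCE and for the radicle with its axis (RAD) ran on to rupture of the testa and of the endosperm, and both later events lay outside the interval described here. The labels state that both ends of the endosperm were pooled, so nothing below separates the micropylar cap from the chalazal end. Each array gave 1 log2 expression value for each of 21313 loci. Biotin-labelled cRNA had been made from 100 ng of RNA per sample and read on Affymetrix arrays.

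The Arabidopsis endosperm is a single layer of living cells between the embryo and the dead testa. Its micropylar end faces the radicle tip and must weaken before the radicle can emerge, which involves proteins that loosen and cut cell walls. Gibberellin promotes this weakening and abscisic acid delays it. Dry seeds also carry transcripts left from maturation, among them those of storage, desiccation-protection and heat shock proteins, which are replaced once water is taken up.

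The labelled tissue was checked against marker genes. The mean level of 15 endosperm markers lay between 7.70 and 7.82 on the arrays of MCE at 12 h, against 7.37 to 7.64 at 7 h, and in RAD it lay between 5.72 and 5.76 at 12 h and between 6.11 and 6.38 at 7 h. Some of these markers are themselves genes of the comparison. By the rule given below, 3 of the 15 rose and 3 fell in MCE. Their median difference was -0.10, with a range from -4.80 to 4.73, so the higher mean at 12 h was not shared by all. The 50 genes that stood highest in RAD over MCE at 1, 3, 16 and 20 h had mean levels of 4.53 to 4.85 in MCE at 12 h, against 4.49 to 4.79 at 7 h. In RAD the same genes lay between 8.50 and 8.56 at 12 h and between 7.69 and 8.08 at 7 h. By the same rule, 6 of the 50 rose and 2 fell in MCE, beside 5.36% and 4.65% of all genes. Their median difference in MCE was 0.06 and the largest was 2.34. A log2 level of 4.03 bounded the dimmest 25% of all genes when each was ranked by its highest mean among the 28 groups. In MCE more genes were dim, as 8364 of 21313 had means below that level at both times. Of 13 seed coat markers, 10 to 11 fell below it on each array at 12 h, against 11 of 13 at 7 h. Of 23 markers of root tissues, 14 to 16 lay below it at 12 h, against 14 to 16 at 7 h. MYB66 (AT5G14750) and CLE40, defining genes of the root epidermis and root tip, were among them in the means of both groups. Of the 23 root markers, 1 rose in MCE, by 1.77, and none fell. That is 4.35% of them, beside 5.36% of all genes that rose. In samples of whole tissue, fewer cells of a type and less RNA per cell cannot be told apart.

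Genes are called risen or fallen where limma gave a Benjamini-Hochberg adjusted p under 0.05 over all 21313 genes and the log2 difference was at least 1 in size, a change of at least 2 times. Differences are written as 12 h minus 7 h, as log2 values with their standard error. That error rests on a spread pooled over all 28 groups, so it can understate the scatter of the array values printed beside it. Lists of 4 array values follow the replicate numbers 1 to 4. Between 7 and 12 h, 2134 genes were called in MCE, which is 10% of those tested. Of these 1143 rose, 5.36% of all genes, and 991 fell, 4.65%. Counts for the gene lists below are to be read beside these shares. The larger changes were mostly upward: 82 genes rose and 31 fell by a log2 difference of at least 3, and 34 rose and 7 fell by at least 4. The values of the groups did not overlap for 2084 of the 2134 called genes, while 32.8% of all genes had groups that did not overlap. The median difference of all genes was -0.01. Every called gene named below had an adjusted p of 0.0164 or less by limma.

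Arrays of one time agreed more closely than arrays of different times. Pearson correlations over all genes lay between 0.987 and 0.995 within 12 h and between 0.982 and 0.996 within 7 h, against 0.936 to 0.967 between the times. Replicate 2 at 12 h and replicate 2 at 7 h are both described in the labels as redone for quality reasons. Over the 6283 genes that differed between MCE at 16 h and at 3 h, each array was placed on a line from 0, the mean of 3 h, to 1, the mean of 16 h. The 12 h arrays lay at 0.807, 0.756, 0.784 and 0.770, against 0.464, 0.327, 0.407 and 0.435 at 7 h. Replicate 2 at 7 h thus lay nearest to 3 h. Of the 1143 genes that rose, 66.8% had their lowest 7 h value on that array, and of the 991 that fell, 63.7% had their highest 7 h value there. Without it, 1023 genes rose and 871 fell. Where leaving it out changed the call of a gene or the count of a list named below, the value without it is also given.

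Genes for cell wall loosening gave several of the largest increases. Expansins loosen walls without cutting them, and 8 of 31 measured rose while 1 fell, against 5.36% and 4.65% of all genes, with a median of 0.08, and 16 of the 31 were below 4.03 at both times. EXPA9 (AT5G02260) had the largest increase of all genes, with log2 values of 11.59, 11.17, 11.58 and 11.30 in MCE at 12 h, against 3.56, 5.01, 3.28 and 4.69 at 7 h. Every 12 h array stood far above every 7 h array, and the difference was 7.28 ± 0.20 (adjusted p = 5.17e-52, limma). For EXPA2 (AT5G05290), an expansin of the endosperm, the values were 13.36, 13.51, 13.38 and 13.57 in MCE at 12 h, against 8.77, 8.79, 8.05 and 9.51 at 7 h. The groups stood well apart (4.68 ± 0.24), and at 12 h it stood close to the top of the measured range, where a rise is compressed. The remaining large increases of the family were those of EXPA1 (AT1G69530) (4.81 ± 0.35) and EXP3 (AT2G37640) (4.25 ± 0.27). The one member that fell was EXLA1 (AT3G45970), an expansin-like gene (-1.48 ± 0.38).

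Xyloglucan endotransglucosylase/hydrolases cut and rejoin xyloglucan, the polymer that tethers cellulose. Of 33 measured, 8 rose and 3 fell (median 0.04). XTH19 (AT4G30290) rose to 12.42, 11.72, 12.15 and 12.25 in MCE at 12 h, against 8.50, 7.10, 6.89 and 7.90 at 7 h. The lowest 12 h array stood above the highest 7 h array by a wide margin, and the difference was 4.54 ± 0.46. Smaller rises were found for XTH33 (AT1G10550) (3.23 ± 0.22) and XTH31 (AT3G44990) (2.76 ± 0.19). XTH25 (AT5G57550) (-2.26 ± 0.23) and XTH30 (AT1G32170) (-2.17 ± 0.18) went down, so the family did not move as one.

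Endo-beta-mannanases cut mannans, which are abundant in endosperm walls, and 6 were measured. MAN7 (AT5G66460) had 10.24, 10.33, 10.53 and 10.11 in MCE at 12 h, against 6.21, 6.86, 6.16 and 6.80 at 7 h. All 12 h arrays stood above all 7 h arrays (3.80 ± 0.21, adjusted p = 2.75e-29, limma). MAN6 (AT5G01930) went the other way, with 4.40, 4.42, 4.60 and 4.55 in MCE at 12 h, against 5.69, 5.57, 5.54 and 5.93 at 7 h, and fell by a clear margin (-1.19 ± 0.17). The differences of MAN5 (AT4G28320) (-0.69 ± 0.17), MAN1 (AT1G02310) (-0.42 ± 0.11), MAN2 (AT2G20680) (0.40 ± 0.15) and the locus AT3G10890 (0.01 ± 0.11) did not reach the fold minimum.

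**Figure D1:**
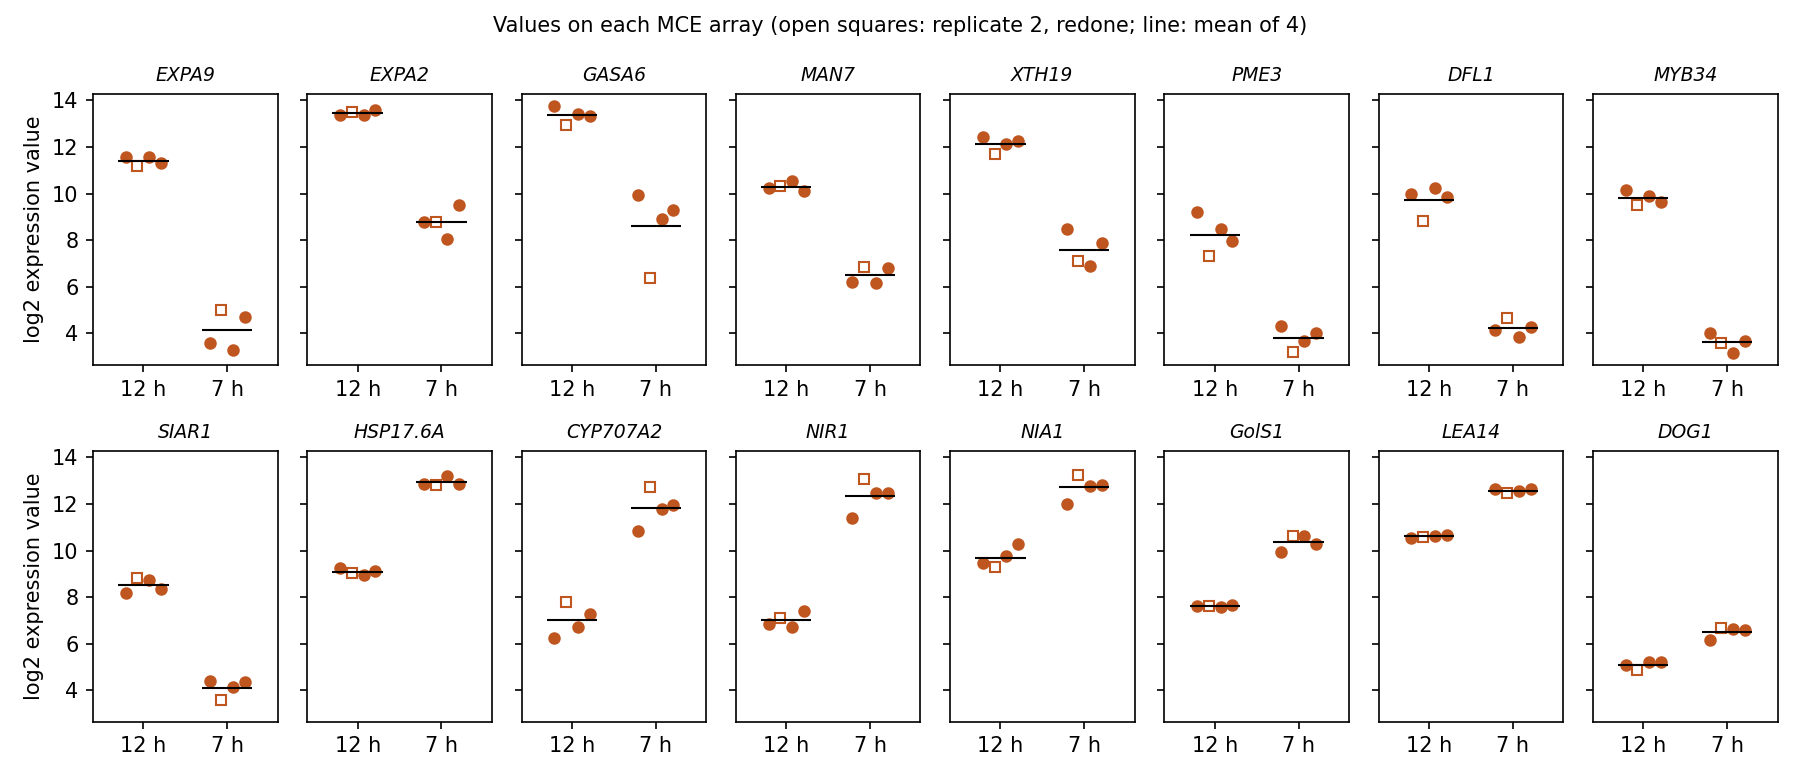
Log2 expression values (vertical axis) on each of the 4 arrays of MCE at 12 h (left in each panel) and at 7 h (right), for 16 genes. Open squares are the redone replicate 2, filled circles the other replicates and horizontal lines the means; in each panel the groups are apart, and for GASA6 replicate 2 at 7 h lies at 6.36, below its fellows at 8.92 to 9.96.

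Pectin is the gel between cellulose fibres. Pectin methylesterases and their inhibitors set how far pectin can stiffen. Of 19 measured, none fell and PME3 (AT3G14310) alone rose, 5.26% of them beside 5.36% of all genes. Its values were 9.20, 7.32, 8.47 and 7.98 in MCE at 12 h, against 4.30, 3.19, 3.66 and 4.01 at 7 h, with replicate 2 lowest in both groups (4.45 ± 0.29). Of 18 genes for pectin cleavage and debranching, 3 rose and none fell. These were BXL2 (AT1G02640), a beta-xylosidase family gene (4.59 ± 0.30), BGAL10 (AT5G63810), a beta-galactosidase gene that acts on xyloglucan side chains (4.18 ± 0.20), and PMR6 (AT3G54920), a pectate lyase-like gene (3.44 ± 0.24). Among 18 genes for cellulose synthesis and control of wall extension, 2 rose and 1 fell. THE1 (AT5G54380), a receptor kinase that senses wall integrity, rose (3.14 ± 0.20). COB (AT5G60920), which guides cellulose deposition, fell (-1.30 ± 0.13). None of 34 genes for plasma membrane proton pumps and aquaporins rose. One of them fell, TIP3;1 (AT1G73190), an aquaporin of the seed storage vacuole (-1.15 ± 0.36).

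Of the 20 largest increases, 2 were in genes that inactivate auxin. Amido synthetases of the GH3 family join auxin to amino acids and so lower free auxin. DFL1 (AT5G54510), also called GH3.6, had log2 values of 9.97, 8.81, 10.23 and 9.85 in MCE at 12 h, against 4.14, 4.64, 3.84 and 4.29 at 7 h. The difference was 5.49 ± 0.18 (adjusted p = 1.18e-45, limma), with no overlap. WES1 (AT4G27260), also called GH3.5, had 8.97, 8.47, 9.35 and 9.15 in MCE at 12 h, against 4.56, 3.76, 4.24 and 4.42 at 7 h, again without overlap (4.74 ± 0.17). Of 37 genes for auxin transport and response, 5 rose and 1 fell (median 0.12). The carriers PIN7 (AT1G23080) for efflux (2.97 ± 0.17) and AUX1 (AT2G38120) for uptake (2.51 ± 0.13) rose, and ARF10 (AT2G28350), a repressing response factor, fell (-1.51 ± 0.13).

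Other large increases came from genes of varied function. MYB34 (AT5G60890), an activator of indole glucosinolate synthesis, had 10.14, 9.52, 9.90 and 9.62 in MCE at 12 h, against 4.00, 3.56, 3.17 and 3.69 at 7 h. It was near background at 7 h and well above it at 12 h (6.19 ± 0.20, adjusted p = 1.08e-45, limma). OCT1 (AT1G73220), an organic cation and carnitine transporter gene, had 10.49, 10.21, 10.45 and 10.42 in MCE at 12 h, against 6.10, 3.34, 4.61 and 5.78 at 7 h. The 12 h arrays lay close together while the 7 h arrays were spread, with replicate 2 lowest (5.44 ± 0.21). RALF1 (AT1G02900), which encodes a secreted peptide that makes the cell surroundings alkaline and binds the receptor kinase FERONIA, rose by 4.58 ± 0.17. TUB5 (AT1G20010), a beta-tubulin gene, rose by 4.82 ± 0.17, and HAT1 (AT4G17460), a homeodomain leucine zipper factor, by 4.58 ± 0.23. FMO GS-OX4 (AT1G62570), an enzyme that oxidises the side chain of glucosinolates, rose by 4.65 ± 0.18. G3Pp1 (AT3G47420), a glycerol-3-phosphate permease family gene, rose by 4.75 ± 0.35, and SKU5 (AT4G12420), which encodes a wall and membrane protein of directional growth, by 4.42 ± 0.19. Loci without a symbol in the gene table were also among the 20 largest, AT3G15720 (5.05 ± 0.22) and AT2G34020 (4.45 ± 0.19).

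Of 14 measured genes of gibberellin synthesis 1 rose, 7.14% of them beside 5.36% of all genes, and none fell. That gene, GA20OX2 (AT5G51810), which makes gibberellin precursors, had 8.43, 8.56, 8.29 and 8.71 in MCE at 12 h, against 8.27, 4.30, 7.02 and 7.77 at 7 h. Replicate 2 at 7 h was far below the other 7 h arrays, and the difference of 1.65 ± 0.32 was 0.81 without that array, under the fold minimum. With only the 8 MCE arrays in the fit its adjusted p was 0.0743 by limma. KAO2 (AT2G32440), an ent-kaurenoic acid oxidase gene, stood at 9.36 ± 0.20 at 12 h and 8.52 ± 0.39 at 7 h (SD, n = 4 arrays each), a difference of 0.84 ± 0.13, under the fold minimum. GA3OX2 (AT1G80340), which makes active gibberellin, differed by 0.50 ± 0.18, and GA3OX1 (AT1G15550) by -0.09 ± 0.23, the second of them below 4.03 at both times. GA3OX3 (AT4G21690), GA3OX4 (AT1G80330), GA20OX4 (AT1G60980), GA20OX5 (AT1G44090), GA1 (AT4G02780) and GA2 (AT1G79460) lay below 4.03 at both times. GA20OX3 (AT5G07200) (-0.30 ± 0.24, and -0.87 without replicate 2 at 7 h), GA20OX1 (AT4G25420) (-0.04 ± 0.21), GA3 (AT5G25900) (0.33 ± 0.12) and CYP88A3 (AT1G05160) (-0.16 ± 0.14) were not called. Of 8 genes for gibberellin inactivation, GA2OX2 (AT1G30040) passed with 1.01 ± 0.18, and its difference was 0.90 without replicate 3 at 12 h, 0.91 without replicate 4 at 12 h and 0.95 without replicate 2 at 7 h.

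Gibberellin acts through GID1 receptors, which mark the repressing DELLA proteins for destruction. Of 14 genes of this pathway 3 rose and 2 fell. RGL3 (AT5G17490), a DELLA gene, had 8.35, 8.29, 8.54 and 8.20 in MCE at 12 h, against 5.53, 4.04, 4.97 and 4.67 at 7 h. It was higher on all 12 h arrays (3.54 ± 0.14, adjusted p = 1.68e-39, limma). The DELLA genes GAI (AT1G14920) (1.04 ± 0.12) and RGL1 (AT1G66350) (1.02 ± 0.18) also passed, but without replicate 2 at 7 h their differences were 0.83 and 0.86, and GAI stood at 0.99 without replicate 2 at 12 h. RGL2 (AT3G03450), the DELLA gene best known for restraining germination, differed by 0.19 ± 0.14, and RGA1 (AT2G01570) by 0.42 ± 0.14. SCL3 (AT1G50420), a scarecrow-like gene that counters DELLA proteins, had 7.11, 7.91, 7.27 and 7.59 in MCE at 12 h, against 9.72, 8.44, 9.77 and 9.77 at 7 h. It fell by a margin that exceeded the spread (-1.96 ± 0.22). The receptor gene GID1A (AT3G05120) fell (-1.10 ± 0.14), at -0.998 without replicate 3 at 7 h. GID1C (AT5G27320) (-0.65 ± 0.16), GID1B (AT3G63010) (0.12 ± 0.17), the F-box genes SLY1 (AT4G24210) (-0.20 ± 0.12) and SLY2 (AT5G48170) (-0.05 ± 0.14), SPY (AT3G11540) (-0.29 ± 0.10), and IDD1 (AT5G66730) (-0.91 ± 0.13) were not called. IDD2 (AT3G50700), also called GAF1, whose product binds DELLA proteins, lay below 4.03 at both times. Among 7 GASA peptide genes, which respond to gibberellin, 2 rose and 2 fell. GASA6 (AT1G74670), known to promote germination, had 13.77, 12.93, 13.41 and 13.31 in MCE at 12 h, against 9.96, 6.36, 8.92 and 9.28 at 7 h. All 12 h arrays were higher, and replicate 2 was lowest in both groups (4.73 ± 0.40). GASA3 (AT4G09600) fell (-1.36 ± 0.27).

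Abscisic acid genes moved in both directions. CYP707A2 (AT2G29090), the hydroxylase that removes abscisic acid during imbibition, had 6.26, 7.80, 6.74 and 7.29 in MCE at 12 h, against 10.83, 12.74, 11.79 and 11.96 at 7 h. It was high at 7 h and fell by several units on every 12 h array (-4.80 ± 0.27, adjusted p = 2.76e-29, limma). CYP707A3 (AT5G45340) passed with 1.12 ± 0.38, but its groups overlapped and the difference ranged from 0.62 without replicate 2 at 7 h to 1.79 without replicate 2 at 12 h. It was not called either without replicate 1 (0.93), replicate 3 (0.96) or replicate 4 (0.79) at 12 h. CYP707A1 (AT4G19230) and CYP707A4 (AT3G19270) lay below 4.03 at both times. The glucosyltransferase gene UGT71B6 (AT3G21780) fell (-1.06 ± 0.13), though at -0.97 without replicate 2 at 7 h and -0.99 without replicate 2 at 12 h. UGT71C5 (AT1G07240) was not called (-0.84 ± 0.15), but passed without replicate 2 at 7 h (-1.01). BGLU18 (AT1G52400) (0.17 ± 0.13) was not called.

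In abscisic acid synthesis, 2 of 10 genes rose and 3 fell. ABA4 (AT1G67080) (1.82 ± 0.21) and NCED5 (AT1G30100) (1.39 ± 0.21) rose. ABA1 (AT5G67030) (-1.49 ± 0.18), which makes the epoxycarotenoid precursors, and ABA2 (AT1G52340) (-1.13 ± 0.18), which acts near the end of the pathway, fell. The third, NCED9 (AT1G78390), which cleaves the precursor in seeds, fell (-1.13 ± 0.21), at -0.98 without replicate 1 at 12 h. Signalling genes gave falls only: 5 of 22 receptors, phosphatases and kinases fell, none rose, and the median was -0.56. OST1 (AT4G33950), a kinase of the SnRK2 family, had 6.86, 6.57, 6.46 and 6.75 in MCE at 12 h, against 9.18, 9.53, 9.11 and 9.09 at 7 h. The groups did not overlap (-2.57 ± 0.22). PYL7 (AT4G01026) (-1.61 ± 0.14), a receptor, fell, as did the phosphatase genes ABI1 (AT4G26080) (-1.46 ± 0.18) and AHG1 (AT5G51760) (-1.44 ± 0.26), which restrain the response.

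Of 26 regulators of seed maturation and dormancy, 5 fell and 1 rose. DOG1 (AT5G45830), a main determinant of dormancy depth, had 5.08, 4.89, 5.23 and 5.22 in MCE at 12 h, against 6.17, 6.70, 6.62 and 6.59 at 7 h. All 12 h values were lower (-1.41 ± 0.17). PIL5 (AT2G20180), a light-regulated repressor of germination (-1.40 ± 0.17), and its target SOM (AT1G03790) (-1.12 ± 0.20) fell, as did BZIP25 (AT3G54620) (-1.13 ± 0.15). EEL (AT2G41070) fell (-1.13 ± 0.16), at -0.99 without replicate 2 at 7 h. SPT (AT4G36930) rose (1.42 ± 0.17). BZO2H1 (AT4G02640) lay just under the fold minimum (-0.998 ± 0.10). ABI3 (AT3G24650) (-0.74 ± 0.15), ABI5 (AT2G36270) (-0.46 ± 0.15), HSFA9 (AT5G54070) (-0.59 ± 0.16), HUB1 (AT2G44950) (-0.36 ± 0.11), FUS3 (AT3G26790) (-0.31 ± 0.15), ABI4 (AT2G40220) (-0.23 ± 0.16), SCRM2 (AT1G12860) (-0.21 ± 0.13), BZIP53 (AT3G62420) (-0.21 ± 0.13), AREB3 (AT3G56850) (0.06 ± 0.12), ICE1 (AT3G26744) (0.32 ± 0.11) and E12A11 (AT1G18100) (0.53 ± 0.26) were not called. LEC1 (AT1G21970), LEC2 (AT1G28300), NF-YB6 (AT5G47670), DAG1 (AT3G61850), DAG2 (AT2G46590), DPBF2 (AT3G44460), HFR1 (AT1G02340) and MYB96 (AT5G62470) were below 4.03 at both times.

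**Figure D2:**
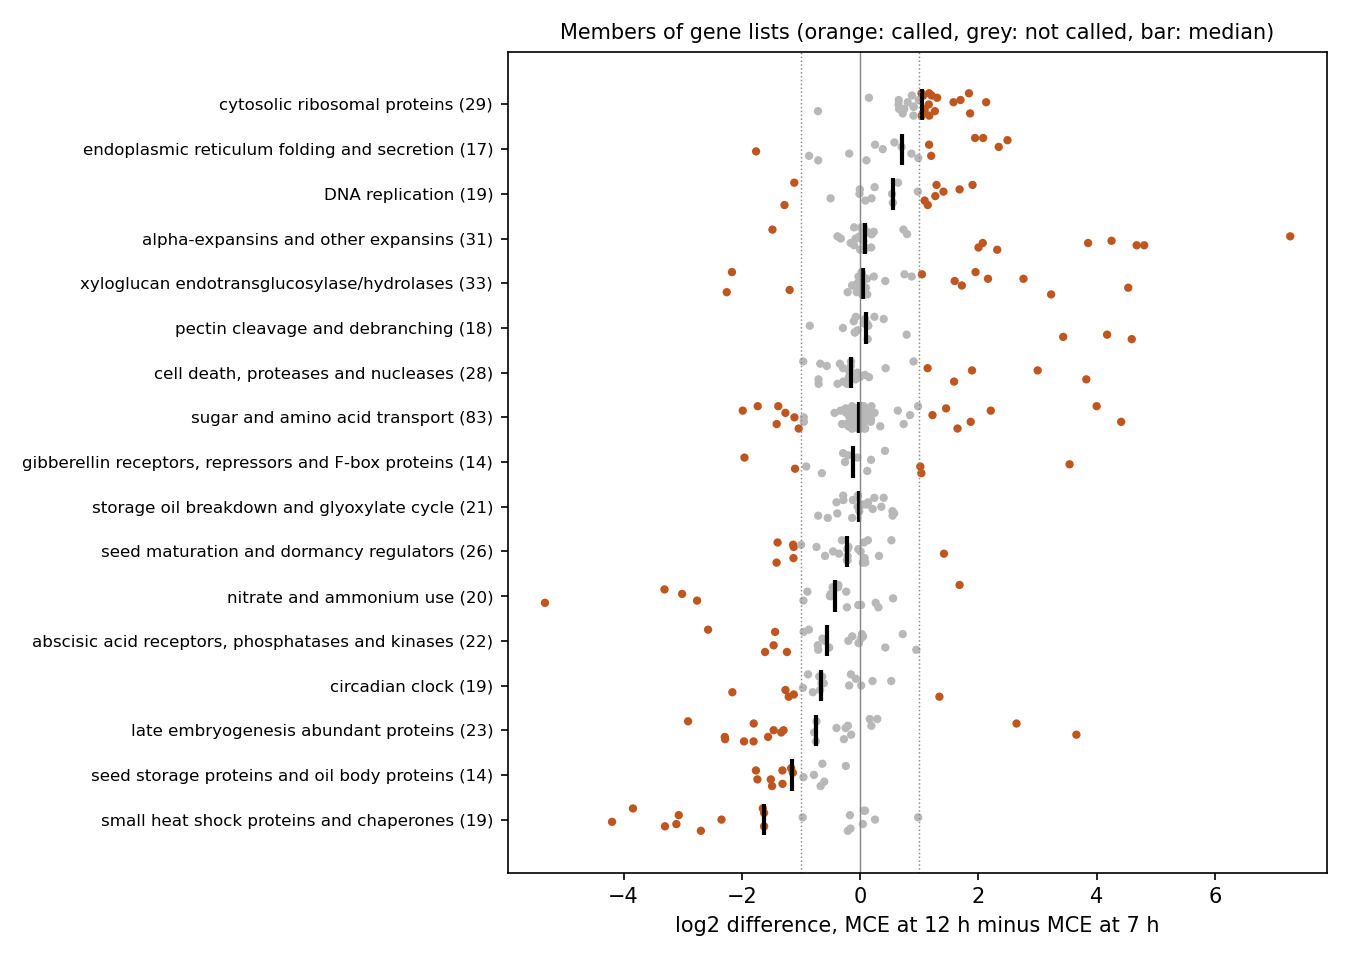
Log2 difference of MCE at 12 h minus MCE at 7 h (horizontal axis) for every measured member of 17 gene lists, with the number of members in brackets. Orange points were called, grey points were not, and black bars are medians; the medians run from 1.04 for ribosomal proteins to -1.62 for heat shock proteins and chaperones.

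Many transcripts of proteins that protect dry cells fell. Of 19 small heat shock proteins and chaperones, 10 fell and none rose, with a median of -1.62. HSP17.6A (AT5G12030) had 9.26, 9.02, 8.95 and 9.13 in MCE at 12 h, against 12.87, 12.81, 13.20 and 12.84 at 7 h. The 12 h arrays lay together well below the 7 h arrays (-3.84 ± 0.25). HSP23.6-MITO (AT4G25200), of the mitochondrion, fell by 4.20 ± 0.15, as did HSP90.1 (AT5G52640), a large chaperone (-3.30 ± 0.26). Beyond that list, the cochaperone gene Hop3 (AT4G12400) (-3.60 ± 0.20) and HSP70T-2 (AT2G32120) (-3.61 ± 0.16) were among the 20 largest decreases. The largest decrease of all was at the unnamed locus AT1G52560, with 3.20, 4.20, 3.46 and 3.45 in MCE at 12 h, against 8.75, 10.08, 9.35 and 8.77 at 7 h. The values fell to the dimmest part of the range at 12 h, except on replicate 2 (-5.66 ± 0.17, adjusted p = 7.56e-48, limma).

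Late embryogenesis abundant (LEA) proteins shield cell contents during drying. Of 23 measured, 10 fell and 2 rose (median -0.75). LEA14 (AT1G01470) had 10.54, 10.61, 10.64 and 10.66 in MCE at 12 h, against 12.65, 12.46, 12.56 and 12.63 at 7 h. The replicates lay within a narrow band at each time (-1.96 ± 0.22). LTI30 (AT3G50970), a dehydrin (-2.91 ± 0.37), ATECP31 (AT3G22500) (-2.29 ± 0.26) and EM1 (AT3G51810) (-2.28 ± 0.26) fell further. The dehydrin gene COR47 (AT1G20440) rose, with 7.71, 7.98, 8.10 and 7.92 in MCE at 12 h, against 4.27, 4.75, 3.96 and 4.10 at 7 h (3.66 ± 0.15). The other member that rose was SAG21 (AT4G02380) (2.65 ± 0.30), an LEA-type gene of senescing and stressed leaves.

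Of 14 storage and oil body protein genes, 8 fell and none rose, with 9 falling without replicate 2 at 7 h (median -1.15). OLEO3 (AT5G51210) (-1.76 ± 0.23) and OLEO4 (AT3G27660) (-1.74 ± 0.27) coat oil bodies, and CRU2 (AT1G03880) (-1.49 ± 0.23) and SESA5 (AT5G54740) (-1.51 ± 0.42) encode storage globulin and albumin. Several stood above 13 at 7 h, where differences can be understated. Galactinol, raffinose and inositol genes fell in 6 of 20 cases and rose in 2. GolS1 (AT2G47180), a galactinol synthase gene, had 7.61, 7.63, 7.60 and 7.66 in MCE at 12 h, against 9.95, 10.63, 10.61 and 10.29 at 7 h. The 12 h arrays lay close together (-2.75 ± 0.20). MIPS2 (AT2G22240), for inositol phosphate synthesis, fell by 3.03 ± 0.16. DIN10 (AT5G20250), a raffinose synthase family gene, rose, with 12.45, 11.67, 12.12 and 12.22 in MCE at 12 h, against 9.14, 6.21, 8.41 and 8.71 at 7 h (4.00 ± 0.35). Of 21 genes for breakdown of storage oil and the glyoxylate cycle, none rose and none fell by limma, with a median of -0.01, and 8 of them had groups that did not overlap, beside 32.8% of all genes.

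Nitrate promotes germination, and its assimilation runs from nitrate reductase to nitrite reductase. Of 20 genes of nitrate and ammonium use, 4 fell and 1 rose (median -0.42). NIR1 (AT2G15620), nitrite reductase, had 6.86, 7.09, 6.73 and 7.42 in MCE at 12 h, against 11.42, 13.06, 12.48 and 12.46 at 7 h. It had the second largest decrease of all genes among those with separate groups (-5.33 ± 0.32, adjusted p = 2.57e-27, limma). The nitrate reductase gene NIA1 (AT1G77760) had 9.46, 9.30, 9.78 and 10.28 in MCE at 12 h, against 12.01, 13.25, 12.78 and 12.82 at 7 h, and fell on every array (-3.01 ± 0.30). The paralogue NIA2 (AT1G37130) fell by 2.76 ± 0.25. RFNR2 (AT1G30510), a ferredoxin reductase of non-green tissue (-3.45 ± 0.21), and TGA1 (AT5G65210), a bZIP factor of the nitrate response (-3.23 ± 0.19), were among the 20 largest decreases. Of the asparagine synthetase genes, ASN1 (AT3G47340) fell (-3.31 ± 0.17) and ASN3 (AT5G10240) rose (1.68 ± 0.15). Over time, NIR1 averaged 9.37 at 1 h, 11.18 at 3 h, 12.36 at 7 h, 7.03 at 12 h and 7.11 at 16 h in MCE. NIA1 averaged 8.07, 10.27, 12.71, 9.70 and 9.69 at the same times. For both genes, 7 h was the highest of these 5 means.

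Of 19 genes of the circadian clock, 4 fell and 1 rose (median -0.65). CCA1 (AT2G46830), a morning factor of the clock, had 6.27, 5.66, 5.81 and 6.13 in MCE at 12 h, against 8.25, 7.80, 8.35 and 8.10 at 7 h (-2.16 ± 0.16). Its means in MCE were 4.13 at 3 h, 8.13 at 7 h, 5.97 at 12 h and 3.95 at 16 h. The partner gene LHY (AT1G01060) fell (-1.21 ± 0.18), as did RVE1 (AT5G17300) (-1.26 ± 0.18). Time of day at sampling is not given in the labels. Of 25 genes of light sensing, 5 fell and 2 rose. The photoreceptor genes PHYD (AT4G16250) (-1.94 ± 0.16) and PHYE (AT4G18130) (-1.14 ± 0.11) fell, and PIF4 (AT2G43010), a growth factor restrained by phytochrome, rose (1.27 ± 0.17). Further large decreases were those of WOX2 (AT5G59340), a homeobox gene of early embryo patterning (-4.54 ± 0.22), PMT6 (AT4G36670), a polyol and monosaccharide transporter gene (-4.41 ± 0.20), GSTU22 (AT1G78340), a glutathione transferase gene (-3.51 ± 0.30), and the unnamed loci AT4G36010 (-4.68 ± 0.33) and AT4G39675 (-3.80 ± 0.43).

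**Figure D3:**
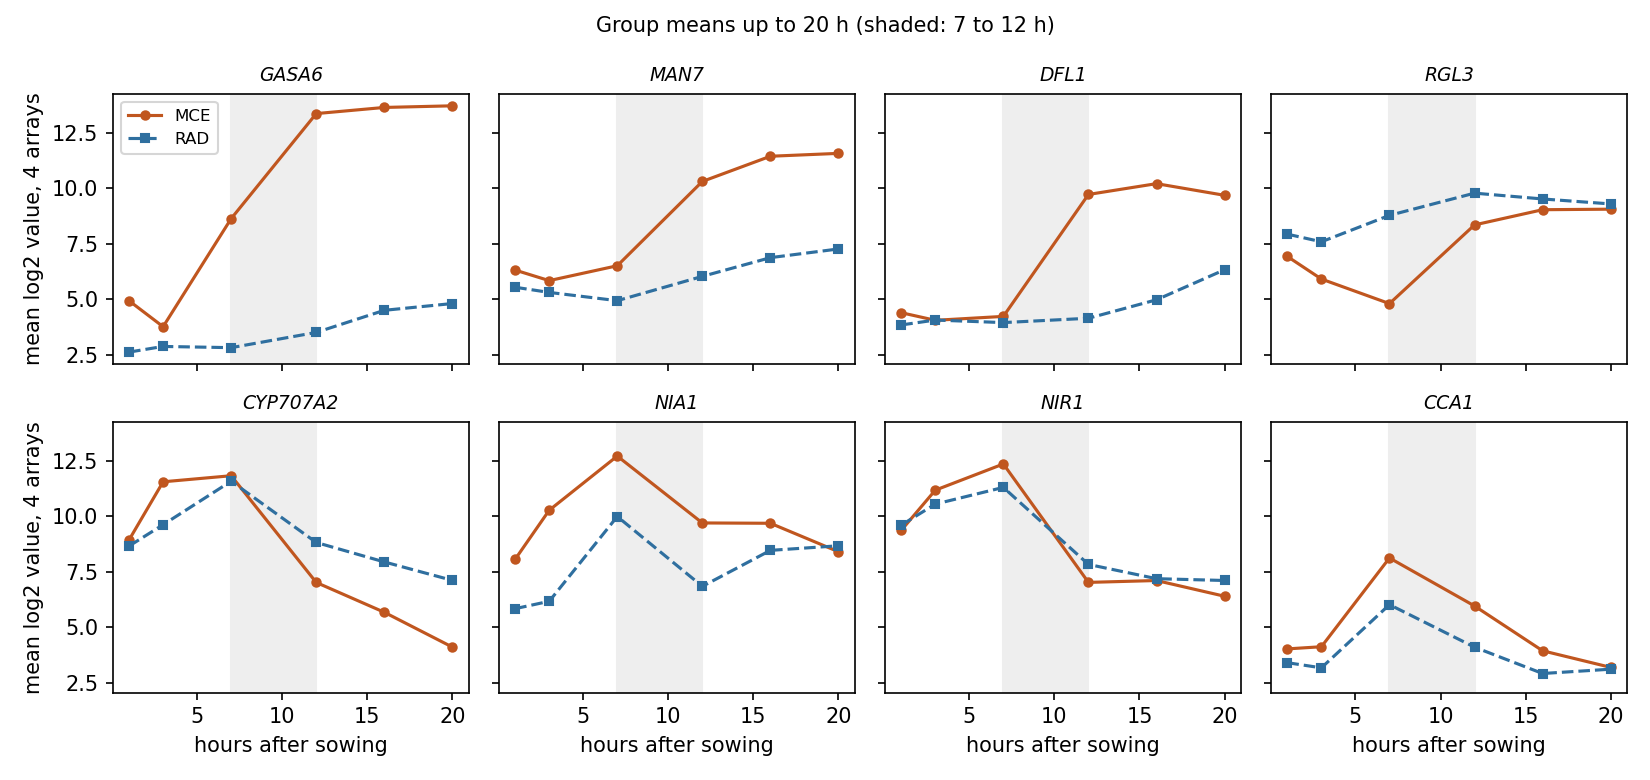
Mean log2 values of 4 arrays (vertical axis) in MCE (orange circles) and RAD (blue squares) from 1 to 20 h after sowing (horizontal axis) for 8 genes, with 7 to 12 h shaded. NIA1, NIR1 and CCA1 stand highest at 7 h in MCE, at 12.71, 12.36 and 8.13, whereas GASA6, MAN7 and DFL1 climb through the interval and then level off.

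Many genes for making and folding proteins rose, in modest steps. Of 29 cytosolic ribosomal protein genes, 16 rose (14 without replicate 2 at 7 h) and none fell (median 1.04). The groups did not overlap for 28 of them, beside 32.8% of all genes, with 12 h higher for 27 and lower for 1. RPL24A (AT2G36620) had 12.47, 12.43, 12.44 and 12.34 in MCE at 12 h, against 11.08, 10.36, 10.55 and 10.88 at 7 h (1.70 ± 0.15). RACK1C_AT (AT3G18130), a scaffold protein of the ribosome, rose by 2.13 ± 0.20. Members of these families are close in sequence, and how probes were shared among them is not given. Of 19 ribosome assembly genes 1 rose and 1 fell, 5.26% each way beside 5.36% and 4.65% of all genes, and none fell without replicate 2 at 7 h (median 0.29 with all arrays). FIB2 (AT4G25630), a nucleolar fibrillarin gene, rose (1.45 ± 0.17). Of 17 genes for folding and secretion in the endoplasmic reticulum, 6 rose and 1 fell (median 0.70). CRT1a (AT1G56340), a calreticulin gene, had 9.10, 9.15, 9.86 and 9.25 in MCE at 12 h, against 7.42, 6.16, 6.98 and 6.84 at 7 h (2.49 ± 0.19). PDIL1-1 (AT1G21750), a protein disulfide isomerase gene, rose by 2.34 ± 0.16, and ATERDJ3A (AT3G08970), a cochaperone gene, fell by 1.76 ± 0.21.

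Of genes for DNA replication, 7 of 19 rose and 2 fell, or 1 without replicate 2 at 7 h (median 0.55). Helicase genes were among them, MCM3 (AT5G46280) with 5.33, 5.45, 5.84 and 5.38 in MCE at 12 h, against 3.74, 3.21, 3.69 and 3.74 at 7 h (1.90 ± 0.16) and MCM2 (AT1G44900) with a rise of 1.68 ± 0.17. In both, the 12 h values stayed in the lower part of the range. TK1a (AT3G07800), a thymidine kinase gene, fell (-1.28 ± 0.13). Of 19 mitosis and cytokinesis genes 1 rose and 1 fell, 5.26% each way beside 5.36% and 4.65% of all genes. Of the 19, 14 were below 4.03 at both times. ICK1 (AT2G23430), an inhibitor of cyclin-dependent kinases, rose (1.76 ± 0.14). Of 22 histone genes 2 rose and 2 fell, or 1 without replicate 2 at 7 h, with HTA8 (AT2G38810) up by 3.02 ± 0.24, GAMMA-H2AX (AT1G54690) up by 2.11 ± 0.18 and RAT5 (AT5G54640) down (-1.20 ± 0.12).

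Nutrient transporters split evenly. Of 83 genes for sugar and amino acid transport 7 rose and 7 fell, 8.43% each way beside 5.36% and 4.65% of all genes. Of the 83, 50 were dim at both times. The amino acid exporter family gave the largest rises, but it did not move as one. Its members UMAMIT8 (AT4G16620) and UMAMIT41 (AT3G28050) fell. Over the alternative fits described below, their differences ran from -2.16 to -1.76 and from -1.50 to -1.20. SIAR1 (AT1G44800) had 8.20, 8.83, 8.72 and 8.37 in MCE at 12 h, against 4.41, 3.58, 4.13 and 4.34 at 7 h (4.42 ± 0.15), and UMAMIT30 (AT4G01450) rose by 4.00 ± 0.17 with no overlap. STP1 (AT1G11260) (-1.41 ± 0.16) and MSS1 (AT5G26340) (-1.73 ± 0.19), which import hexoses, fell. Among 28 genes of cell death, proteases and nucleases, 5 rose and none fell, while the median was -0.15 and 13 were dim at both times. ALP (AT5G60360), an aleurain-like vacuolar protease gene, had 9.53, 8.80, 9.01 and 8.45 in MCE at 12 h, against 5.90, 4.21, 5.17 and 5.21 at 7 h (3.83 ± 0.23). scpl48 (AT3G45010), a carboxypeptidase-like gene, rose by 3.00 ± 0.21, RD21A (AT1G47128) by 1.89 ± 0.20 and CP1 (AT4G36880) by 1.59 ± 0.35, the last from an already high level.

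Other hormone pathways held a few calls each. Of 20 brassinosteroid genes 5 rose and 1 fell, and 4 rose and none fell without replicate 2 at 7 h, with DWF1 (AT3G19820), a sterol reductase of the synthesis pathway, up by 3.60 ± 0.27 and BIM1 (AT5G08130), a response factor, by 1.42 ± 0.15. Of 29 ethylene genes 2 rose (6.9%), or 1 without replicate 2 at 7 h, and 3 fell (10.3%). The shares of all genes were 5.36% and 4.65%. The receptor gene ERS1 (AT2G40940) was up by 1.50 ± 0.19, and the response factors ERF2 (AT5G47220) (-1.79 ± 0.26) and ERF-1 (AT4G17500) (-1.70 ± 0.23) were down. Of 23 jasmonate genes 3 rose and 1 fell, or 2 without replicate 2 at 7 h, with AOC4 (AT1G13280), for jasmonate synthesis, up by 2.34 ± 0.23 and ST2A (AT5G07010), which inactivates a jasmonate, up by 2.80 ± 0.21. None of 12 karrikin and strigolactone genes rose or fell by limma, and 4 of them had groups that did not overlap, beside 32.8% of all genes. Among 21 enzymes of reactive oxygen 3 rose and 3 fell, or 2 without replicate 2 at 7 h. APX1 (AT1G07890), an ascorbate peroxidase gene, rose (1.70 ± 0.19) and CAT3 (AT1G20620), a catalase gene, fell (-1.58 ± 0.18). Of 25 genes of touch and early stress response, CML38 (AT1G76650) (1.04 ± 0.31) and CBF1 (AT4G25490) (1.02 ± 0.36) passed upward with all 8 arrays and neither without replicate 2 at 7 h (0.61 and 0.78). They made up 8% of the list, beside 5.36% of all genes. Both were also lost without replicate 1 (0.79 and 0.95), replicate 3 (0.97 and 0.88) or replicate 4 (0.91 and 0.81) at 12 h. Of 33 genes of cutin, wax and suberin synthesis LACS1 (AT2G47240) (1.04 ± 0.18) alone passed upward, 3.03% of them beside 5.36% of all genes. Without replicate 2 at 7 h it did not pass (0.92). It was also lost without replicate 1 (0.73) or replicate 3 (0.97) at 12 h. Of 24 photosynthesis and chlorophyll genes 3 rose and none fell, led by CHLI1 (AT4G18480) (2.42 ± 0.19).

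The radicle sampled over the same hours served as the comparison for what was shared. Of 21313 genes, 2243 were called in RAD at 12 h against 7 h, 10.5%, with 1285 up (6.03%) and 958 down (4.49%). Without all the redone arrays of the series 2002 were called in RAD. Without replicate 3 of RAD at 7 h alone the count was 2001, the lowest with 1 array left out. Of the genes that rose in MCE, 655 also rose in RAD, which is 57.3% of the MCE genes and 51% of the RAD genes. Of those that fell, 580 also fell in RAD, 58.5% of the MCE genes and 60.5% of the RAD genes. Opposite calls were found for 6 genes that rose in MCE, among them the gibberellin genes GA20OX2 and GA2OX2 (RAD -1.08 ± 0.18), and for 4 that fell, AT1G09200, AT1G55450, ACR4 and AT5G45280, which were singled out after their values were seen. Without replicate 2 of MCE at 7 h, neither GA20OX2 (0.81) nor GA2OX2 (0.95) was called in MCE. The change itself differed between MCE and RAD for 1053 genes, 4.94% of those tested, by the interaction term in limma, with 496 more positive in MCE (2.33%) and 557 more negative (2.61%). This count was 1017 without all the redone arrays.

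The largest interactions in the positive direction were in genes that rose in MCE and hardly moved in RAD. Some of them lay below 4.03 in RAD at both times. RALF1 averaged 3.37 at 7 h and 3.28 at 12 h in RAD, and SIAR1 3.09 and 3.32. DFL1 changed by 0.20 ± 0.18 in RAD, so the interaction was 5.29 ± 0.26 (adjusted p = 7.57e-32, limma). Its RAD values were 4.21, 4.21, 4.30 and 3.86 in RAD at 12 h, against 3.76, 3.69, 4.30 and 4.05 at 7 h, and those groups overlapped. OCT1 had an interaction of 5.12 ± 0.30, RALF1 of 4.67 ± 0.24 and WES1 of 4.47 ± 0.25. EXPA2 changed by 0.45 ± 0.24 in RAD (interaction 4.23 ± 0.34), and GASA6 by 0.69 ± 0.40 (interaction 4.04 ± 0.57). The amino acid transporter genes SIAR1 (4.19 ± 0.21) and UMAMIT30 (4.00 ± 0.23) completed the 8 largest. By contrast, EXPA9 rose in both, by 3.51 ± 0.20 in RAD, and rose more in MCE (interaction 3.77 ± 0.28). GA20OX2 was lower at 12 h in RAD (-1.47 ± 0.32), with an interaction of 3.12 ± 0.45.

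In the other direction stood genes that rose in RAD and were not called in MCE, apart from XTH4 (AT2G06850). KCS20 (AT5G43760), a fatty acid elongase gene, changed by -0.15 ± 0.20 in MCE and 3.72 ± 0.20 in RAD (interaction -3.87 ± 0.28, adjusted p = 7.02e-21, limma). LACS2 (AT1G49430) (interaction -3.39 ± 0.26) and CYP86A4 (AT1G01600) (-3.35 ± 0.24) act in cutin synthesis. MYB66 (AT5G14750), which sets the fate of root epidermis cells, changed by 0.26 ± 0.19 in MCE and 3.91 ± 0.19 in RAD (interaction -3.66 ± 0.26). The wall genes XTH15 (AT4G14130) (-3.69 ± 0.55), XTH4 (-3.44 ± 0.38) and GH9B1 (AT1G70710), an endoglucanase (-3.52 ± 0.32), and the unnamed locus AT5G45670 (-3.29 ± 0.44) made up the 8. XTH4 passed in MCE with 1.05 ± 0.27, but not without replicate 3 at 12 h (0.76) or replicate 3 at 7 h (0.91). GA3OX2, not called in MCE, rose in RAD by 2.96 ± 0.18 (interaction -2.46 ± 0.26).

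**Figure D4:**
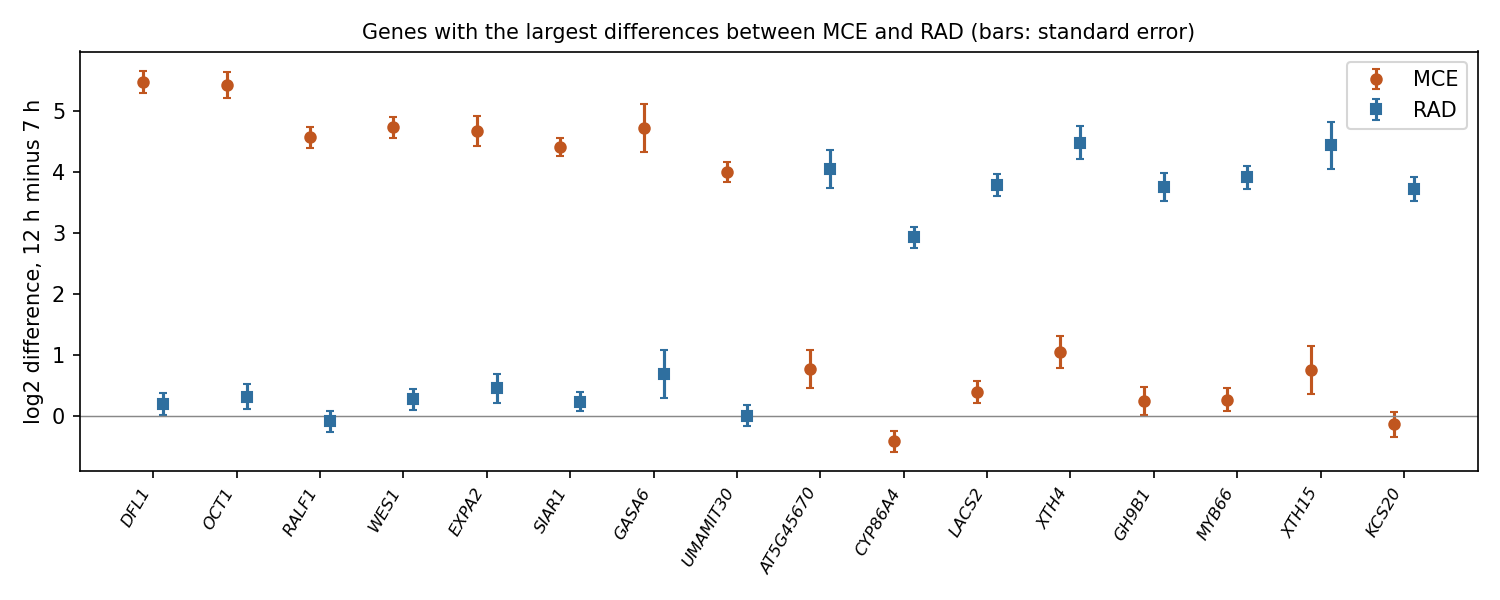
Log2 difference of 12 h minus 7 h (vertical axis) with its standard error in MCE (orange circles) and RAD (blue squares) for the 8 genes with the largest and the 8 with the lowest difference between the tissues. DFL1 lies at 5.49 in MCE and 0.20 in RAD, and KCS20 at -0.15 in MCE and 3.72 in RAD.

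Several lists also had interaction calls of mostly one sign. Of 23 LEA genes, 10 had a more positive change in MCE and 1 a more negative one, with medians of -0.75 in MCE and -1.88 in RAD. For heat shock proteins these counts were 7 and 0 of 19, with medians of -1.62 and -2.09. DNA replication genes had none more positive and 9 of 19 more negative in MCE, with medians of 0.55 and 1.61. For cutin, wax and suberin genes the counts were 1 and 9 of 33. Ribosomal protein genes had no interaction call in either direction, with medians of 1.04 and 0.88. Over all genes the shares were 2.33% and 2.61%.

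The interval was also set against MCE at 16 h and 3 h, which uses no array of the comparison. Replicate 2 at 16 h is titled as 16 h while its source name gives 12 h, and it was taken by its title. There 6283 genes were called, 29.5%, with 3372 up (15.8%) and 2911 down (13.7%), and 6199 were called without that replicate. Of the genes that rose between 7 and 12 h, 1051 of 1143 also rose at 16 h against 3 h, 92% of them and 31.2% of the risers of the wider interval. Of those that fell, 829 of 991 also fell, 83.7% and 28.5%. Opposite calls were found for 15 that rose and 13 that fell between 7 and 12 h.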

How the data were processed

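Endosperm of the micropylar and chalazal ends (MCE) at 12 h and 7 h after sowing, 4 arrays each, was taken from a deposited table of log2 expression values for 21313 loci, with each array of the series in 1 of 28 groups by its title. Per the submitters' processing notes the log2 values came from RMA and the package affy, with no versions given. RMA removes background, brings the arrays to a common distribution and combines probes, which compresses differences at both ends of the range. The assignment of probes to loci and the genome build are not given in the sources used here. Positions are therefore left out. The RefSeq gene table held 21205 of the loci and lacked 108, and gave the symbols.

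A linear model with a mean for each of the groups was fitted to all arrays with limma 3.58.1 under R 4.3.3, which left 83 residual degrees of freedom, and moderated tests were two-sided. Calls needed a Benjamini-Hochberg adjusted p under 0.05 together with a log2 difference of 1 or more in size. The change in RAD, the difference between the 2 changes and MCE at 16 h against 3 h were fitted in the same model. The spread was pooled over groups, with a median moderated SD of 0.193 per gene, and the number of arrays limits the precision. Whether replicates came from separate seed batches is not given, so the p-values may reflect technical spread only. No 2 arrays held identical values.

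The comparison and the 46 gene lists, with 988 measured genes, were chosen with earlier results of these data known. GAF1 and ACR4, symbols shared with unrelated genes, were entered by locus, poltergeist-like genes were kept out of the pectin list, and PAP85 was placed with storage proteins. Named genes were the 20 largest increases and decreases with groups that did not overlap, up to 4 called members of each list per direction, every member of the lists for gibberellin synthesis and reception, abscisic acid breakdown, mannanases and maturation regulators, and the 8 largest and 8 lowest interactions. Where more genes qualified than the text could hold, those of known function were preferred. On simulated data for MCE at 12 h against 7 h, a true log2 change of 1.2 was called in 90% of cases and one of 2 in 100%. Of the 21313 genes, those left unchanged gave 0 false calls. For the interaction these were 79%, 100% and 2. The simulated noise was normal, independent between arrays and of the spread the model had fitted. It held no shift of a whole array, such as that of replicate 2 at 7 h, so the false calls do not cover such shifts. With a median SD of 0.193 and a log2 minimum of 1, few false calls could arise. Their number therefore does not measure the error among the real calls.

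The alternatives were leaving out the 25% dimmest genes (15984 kept), a repeated quantile normalization, an added scaling of each array by a trimmed mean, array weights, a prior that follows intensity, a block for the replicate number, only the groups compared, no fold minimum, and fits without redone arrays, without 3 arrays whose labels differ on their stage, or without each array in turn. Counts of list members without replicate 2 at 7 h were added after the data were seen.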

Additional observations from a re-analysis of the deposited data

Results flagged for a closer look

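For 190 named genes, each of the MCE groups at 12 h and 7 h was checked for 1 array far from its 3 fellows, and 15 of 380 groups had one. Chance alone flags about 1 group in 20. At 7 h, replicate 2 was the array apart for UGT71C5 (7.70, next 8.31), STP1 (10.88, next 11.66), E12A11 (9.02, next 9.67), SCL3 (8.44, next 9.72), RGL2 (9.71, next 10.30), ABI3 (8.24, next 9.10), GA20OX3 (9.55, next 11.80) and MCM3 (3.21, next 3.69), and was the lowest each time. At 12 h, replicate 2 was apart and lowest for STP1 (9.45, next 10.25) and RGL2 (9.95, next 10.46). The remaining arrays apart were replicate 4 at 12 h for ICK1 (6.29, next 5.94), replicate 1 at 12 h for AHG1 (9.63, next 9.98), and at 7 h replicate 1 for PIL5 (9.73, next 10.21) and replicate 3 for XTH31 (3.13, next 3.41) and HSP17.6A (13.20, next 12.87).

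The change at 12 h against 7 h differed between MCE and RAD by the interaction term in limma for 79 of the 190 named genes, and the 19 whose interaction is described above were among them. It was more positive in MCE for DFL1 (5.29), OCT1 (5.12), RALF1 (4.67), WES1 (4.47), EXPA2 (4.23), SIAR1 (4.19), GASA6 (4.04), UMAMIT30 (4.00), EXPA9 (3.77) and GA20OX2 (3.12). It was more negative in MCE for KCS20 (-3.87), XTH15 (-3.69), MYB66 (-3.66), GH9B1 (-3.52), XTH4 (-3.44), LACS2 (-3.39), CYP86A4 (-3.35), AT5G45670 (-3.29) and GA3OX2 (-2.46). The part of replicate 2 at 7 h, a redone array, in the GA20OX2 value was not tested within the interaction.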

How the results depend on the processing

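The counts at 12 h against 7 h in MCE stayed within 1.5 times of the reported 1143 and 991 under all alternatives except 1: with no fold minimum 3872 genes were higher and 4157 lower, and the counts were 8646 in RAD, 2623 for the interaction and 12027 for MCE at 16 h against 3 h. Of 2135 genes past the fold minimum, 2134 passed on adjusted p, so alternatives that alter only p-values could barely move the count. With each array left out in turn, 1023 to 1216 genes rose and 871 to 1116 fell in MCE, 2001 to 2438 were called in RAD, 987 to 1123 for the interaction and 6199 to 6374 at 16 h against 3 h. Both lowest MCE counts were without replicate 2 at 7 h. Deviations of same-numbered arrays from the group means correlated at 0.36, 0.38, 0.02 and 0.15, and 3 of the 4 arrays at 12 h correlated best with their own number. Replicate 3 correlated more with another number (0.07), and for replicate 4 the best other number came close (0.12). Whether same-numbered arrays shared their handling was not tested. As the labels give no shared source and 1 pair lay under 0.1, the numbers were not treated as pairs. The replicate block left 1143 genes higher and 991 lower in MCE, while 8226 genes passed on adjusted p alone, against 8029. Of 186 called genes that the naming rule gave, none changed sign, and 1642 of 1674 values under the other alternatives and 1434 of 1488 with an array left out stayed called. Signal near background limits what can be said of 8364 genes whose means lay below a log2 level of 4.03 at both times.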

Other observations

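After the largest increases were seen, 35 genes of glucosinolate synthesis, modification and transport were gathered, so the count below is a description with no test of the group. Glucosinolates are the defence compounds of this plant family. Of these genes 13 rose in MCE at 12 h against 7 h and 1 fell, with a median log2 difference of 0.08, beside 5.36% and 4.65% of all genes. In RAD 13 rose and none fell, with a median of 0.45. Besides MYB34 and FMO GS-OX4, the rises were large for IGMT5 (AT1G76790, 4.09 ± 0.30), a methyltransferase gene of indole glucosinolates, CYP83B1 (AT4G31500, 4.05 ± 0.30), for the core structure, and AOP3 (AT4G03050, 3.78 ± 0.23), for side chains. The transporter gene GTR1 (AT3G47960) rose by 2.41 ± 0.15, and GTR2 (AT5G62680) passed at the fold minimum with 1.00 ± 0.19. CYP81F3 (AT4G37400) fell (-1.21 ± 0.23).

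A family of 9 GH3 amido synthetase genes was gathered in the same way. DFL1, WES1 and GH3.1 (AT2G14960, 3.53 ± 0.18) rose in MCE and none fell, and in RAD none rose or fell by limma. The largest RAD difference among these 3 genes was 0.27.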
